A study of Mus musculus with 2 samples.

Results

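The replication-dependent histone genes of the mouse lie in clusters, and their symbols in the deposited gene list start with Hist1h, Hist2h, Hist3h or Hist4h. This rule chose 67 of the 31053 listed genes without using any measured value, and 61 of the 67 had at least 10 unique molecular identifiers (UMIs, each counting 1 captured transcript) over the barcodes of both libraries. Of all genes, 14771 met the same minimum. Split by the letters after the cluster number, the members comprised 6 H1 linker histone genes, 18 H2A, 18 H2B, 12 H3 and 13 H4 genes. The numbers kept were 6 H1, 15 H2A, 16 H2B, 11 H3 and 13 H4 genes. Hist1h2ah had 7 UMIs, Hist1h3h 6, Hist2h2aa2 4, Hist1h2bq and Hist1h2aa 1 each and Hist1h2ba 0, and these 6 were not compared. The members just inside the minimum were Hist1h2bk with 21 UMIs, Hist1h4m with 24, and Hist1h1t and Hist1h2bl with 27 each.

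The cells came from spleens of naive mice, 7 to 9 weeks old and kept under specific pathogen-free conditions, that carried Il7r-cre and Rosa26-lsl-tdTomato. In these mice Cre expressed under the Il7r gene removes a stop cassette, so a cell and its progeny turn tdTomato-positive once Cre has been active in it or in a progenitor. Cells were enriched for CD11c with an APC-labelled antibody and magnetic beads and then sorted, which gave 1 library of tdTomato-positive cells, named L-cDC, and 1 of cells without tdTomato, named M-cDC. How many mice were pooled is not given in the sources used here. With 1 library per group there is no replicate, so no test was made. The 95% intervals given cover counting error only and say nothing of the spread between mice.

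Nucleosomes wrap DNA around an octamer of H2A, H2B, H3 and H4, and H1 binds the linker DNA between them. The clustered genes supply most of this protein while DNA is being copied, whereas replacement histones encoded elsewhere are made throughout the cell cycle. Their mRNAs mostly end in a conserved stem-loop bound by the protein SLBP rather than in a poly(A) tail, although several of the genes also give polyadenylated transcripts, particularly in differentiated cells. The 3′ kit primes on poly(A), so the UMIs count the captured transcripts and not the whole histone mRNA pool.

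The stem-loop was the sequence feature that set the members' gene models apart. It was searched on the transcript strand as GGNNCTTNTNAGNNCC with the N positions of both stem arms complementary, which gives 6-base arms around a 4-base loop. It was present in the transcript models of 46 of the 67 members (45 of the 61 kept), against 9 of 21834 other protein-coding genes (0.0412%), among them H2afx and H2bfm. The form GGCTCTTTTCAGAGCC occurred in 26 members, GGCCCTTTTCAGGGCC in 7, all of them H4 genes, and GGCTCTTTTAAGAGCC in 6. The following examples, 1 or more from each family, carry the results below, with the stem-loop in capitals and up to 5 flanking bases.
Hist1h1c: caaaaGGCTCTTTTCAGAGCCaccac
Hist1h2ap: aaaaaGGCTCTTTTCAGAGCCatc
Hist1h2ab: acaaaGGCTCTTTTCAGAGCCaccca
Hist3h2a: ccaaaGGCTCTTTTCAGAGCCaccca
Hist1h2bj: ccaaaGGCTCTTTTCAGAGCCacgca
Hist1h3c: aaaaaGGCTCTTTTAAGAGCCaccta
Hist1h4d: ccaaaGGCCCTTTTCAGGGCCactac
The model of Hist1h2ap ends 3 bases past its stem-loop, that of Hist1h1c 840 bases past it and that of Hist3h2a 1643 bases past it. The models of Hist1h1b and Hist1h2bc hold no match to these letters. A model annotated to end before the stem-loop would hold none either, so a missing match does not show that the gene lacks it. The Hist1h2bc model, at 1156 bases over 2 exons, is not short, but sequence outside the models was not searched.

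Promoters were available for 61 of the 67 members in RefSeq on GRCm38.p6, and 4 motifs were searched on both strands of the 250 bases before the start. CCAAT, the CCAAT box, was found in 50 of 61 members' promoters, against 33.8% of 32851 promoters. TATAAA was found in 29 of 61, against 12.4%. ATTTGCAT, the octamer bound by Oct factors, was found in 13 of 61, against 1.60%, and all 13 were H2A or H2B genes. AAACACA, the H1 box, was found in 5 of the 6 H1 promoters and in 4 others, against 6.25%. The CCAAT box was in all 6 H1, all 17 H2A and all 16 H2B promoters available, but in 3 of 12 H4 promoters. A match is a description of these letters and not evidence of binding. The promoters of 4 members follow, each as the 150 bases before the start on the gene's strand with the motifs in capitals (CCAAT also as ATTGG, ATTTGCAT also as ATGCAAAT): 3 of members that were higher in cycling cells and Hist3h2a, which was lower.
Hist1h1b, chr13:21780626-21780775, minus strand: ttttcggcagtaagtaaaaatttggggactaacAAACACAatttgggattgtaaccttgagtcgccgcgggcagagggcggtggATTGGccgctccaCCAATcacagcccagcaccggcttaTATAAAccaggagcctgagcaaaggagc
Hist1h1c, chr13:23738657-23738806, plus strand: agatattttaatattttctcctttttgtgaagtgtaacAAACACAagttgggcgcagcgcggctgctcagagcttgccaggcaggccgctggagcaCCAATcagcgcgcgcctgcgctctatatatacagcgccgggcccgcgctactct
Hist1h2ab, chr13:23750938-23751087, plus strand: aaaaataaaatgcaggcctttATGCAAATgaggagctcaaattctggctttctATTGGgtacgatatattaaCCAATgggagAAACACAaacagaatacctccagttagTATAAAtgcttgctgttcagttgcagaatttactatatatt
Hist3h2a, chr11:58954535-58954684, plus strand: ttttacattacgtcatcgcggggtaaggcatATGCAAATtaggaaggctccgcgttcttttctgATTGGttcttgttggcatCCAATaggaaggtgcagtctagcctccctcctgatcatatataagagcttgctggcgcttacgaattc

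On GRCm38, 54 members lie at chr13:21715763-23934851, 10 at chr3:96219865-96270132, 2 at chr11:58948920-58956830 and 1 at chr6:136801553-136804415. Of the 61 kept members, 58 have a gene model of 1 exon. Hist1h2bc is among the 3 with more, with 2 exons over a gene span of 8710 bases at chr13:23684199-23692908. Many members are near-identical: of all 90-base windows of their models, 24 kept members shared at least 50% with another gene. Reads of such members cannot be assigned with certainty, so their values are uncertain as single genes. The same holds for the 7 kept members that overlap another gene on the same strand, among them Hist1h1e, Hist1h2be and Hist3h2a.

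L-cDC held 40170515 UMIs in 4939 barcodes and M-cDC 52973960 in 6674, and after filters and removal of doublet-like barcodes 3943 L-cDC and 5600 M-cDC cells remained. Their median depths were 8573 and 7663.5 UMIs, and 6 barcodes occurred in both libraries. Itgax, the gene of CD11c, was at 54.6 CPM (UMIs scaled to a total of 1000000) in L-cDC, against 72.1 CPM in M-cDC, Flt3 at 151 and 159 CPM and H2-Ab1 at 3412 and 5120 CPM. Clustering without any histone gene gave 20 clusters, and 2 of them, led by genes such as Top2a and Birc5, formed the cycling cells. These were 76 L-cDC cells (1.93%) and 270 M-cDC cells (4.82%), with median depths of 17604.5 and 15733 UMIs, and the non-cycling cells had medians of 8491 and 7457 UMIs. L-cDC also held 149 NK-like and 53 B-like cells, whereas M-cDC held 1 and 0, so cells other than dendritic cells sat mostly in 1 library. Clusters with at least 400 CPM of Ccr7, the chemokine receptor of mature dendritic cells, were grouped as Ccr7-high, a rule set after the clusters had been seen. Clusters whose median depth was under the median of all cells divided by 3, with 193 L-cDC and 124 M-cDC cells, were kept apart as low-depth whatever their Ccr7, and 1 of them had 611 CPM of it.

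The members gave 129018 UMIs, 48625 in L-cDC and 80393 in M-cDC. H1 genes held 42.4% of these UMIs, H2A 26.5%, H4 13.2%, H2B 12.4% and H3 5.51%. A few genes made up most of each family: Hist1h1e held 37.3% of H1, Hist1h2ap 41.5% of H2A, Hist1h2bc 59.3% of H2B, Hist1h3e 39.6% of H3 and Hist1h4d 65.6% of H4. The 6 members with most UMIs held 64.8% in all.

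The clustered histone genes as a whole were about 11-fold higher in cycling cells than in non-cycling cells of the same library. They reached 9701 CPM in cycling and 914 CPM in non-cycling L-cDC, a ratio of 10.6 (95% interval 10.4 to 10.8). In M-cDC they reached 8960 CPM in cycling and 806 CPM in non-cycling cells, a ratio of 11.1 (11 to 11.3). Cycling cells were deeper, and in UMIs per cell with no scaling to depth the ratios were 20.6 and 22.1. A member was called at 2-fold or more with an interval that left out 1 in both libraries. By this rule 50 of 61 members were higher in cycling cells, where 9.54% of all genes tested were, and 2 of 61 were lower, where 5.63% were. Higher calls fell on 6 of 6 H1, 13 of 15 H2A, 12 of 16 H2B, 9 of 11 H3 and 10 of 13 H4 genes, and the 2 lower ones were Hist1h2bc and Hist3h2a. The median log2 ratio of the members was 3.29 in L-cDC and 3.45 in M-cDC, against 0.41 and 0.25 over all genes tested. Both libraries had ratios of at least 10 for 29 members and of at least 50 for 4. The non-cycling cells of L-cDC included 149 NK-like, 53 B-like, 52 Gzmc-led, 49 macrophage-like and 193 low-depth cells. Those of M-cDC included 1, 0, 0, 25 and 124. The dendritic cell clusters hold none of these cells. Set against the dendritic cell clusters alone, 12 of 54 members with at least 4 UMIs on each side had an L-cDC ratio over 1.5 times as high, at most 5.74 times, against 0 of 56 in M-cDC. Among members named below the L-cDC ratio became 60.5 for Hist1h2ab, 136 for Hist1h2af, 152 for Hist1h2bm, 50.7 for Hist2h2bb, 113 for Hist1h1a, 243 for Hist1h3b and 25.8 for Hist2h2ac.

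**Figure D1:**
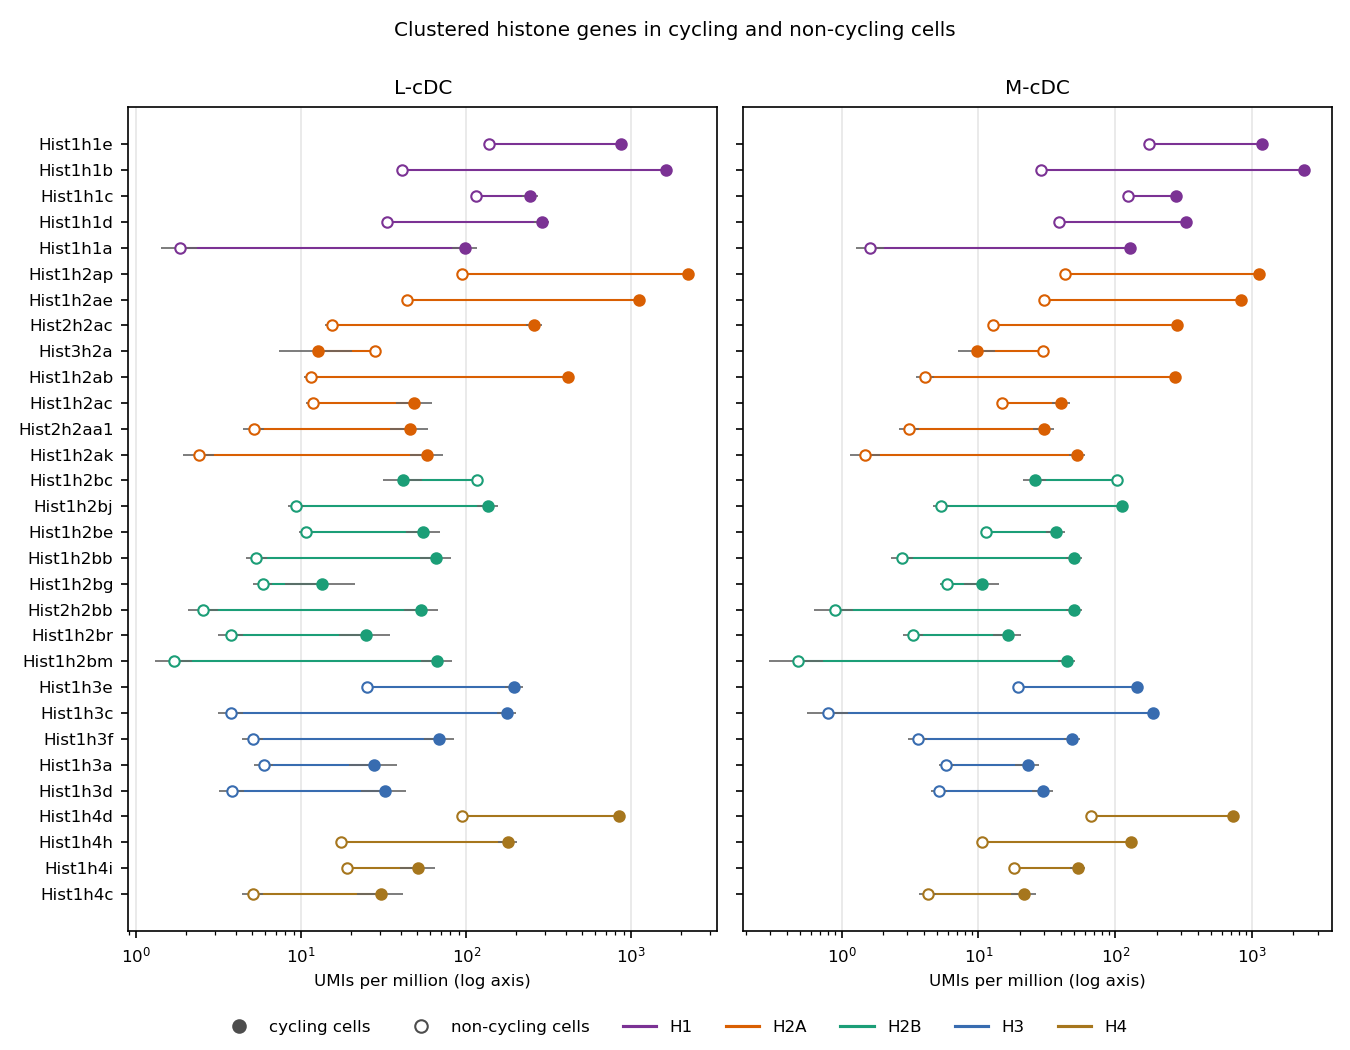
Level of the 30 members with most UMIs in cycling and non-cycling cells of each library (CPM, log axis), ordered by family; bars are 95% counting intervals. Hist1h2bc and Hist3h2a are the members whose non-cycling points lie to the right of the cycling ones, in L-cDC at 41.6 CPM in cycling against 116 CPM in non-cycling cells and at 12.6 against 27.9 CPM.

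The histone content also spread widely among cycling cells themselves. Clustered histone genes held a median of 0.656% of a cycling L-cDC cell's UMIs (lowest 0.0117%, highest 4.15%) and 0.476% of a cycling M-cDC cell's (0 to 3.52%). In non-cycling cells the medians were 0.0679% in L-cDC and 0.0671% in M-cDC. After each cell was thinned to 3000 UMIs, 93.2% of cycling L-cDC and 93.6% of cycling M-cDC cells had a UMI of some member, against 82.2% and 82.1% of non-cycling cells (unthinned 100% and 99.6%, against 94.2% and 94.9%). The share for Hist1h1b, the H1 gene with the highest level in cycling cells, differed more. It had a UMI in 71.2% of thinned cycling L-cDC and 68.2% of thinned cycling M-cDC cells, against 4.06% and 5.78% of non-cycling cells (unthinned 84.2% and 84.4%, against 8.38% and 10.5%). For Hist1h1c the thinned shares lay closer, at 35.6% and 42.7% of cycling against 27.6% and 29.9% of non-cycling cells.

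The H1 genes encode linker histones, and all 6 were higher in cycling cells. Together they were at 3121 CPM in cycling and 329 CPM in non-cycling L-cDC (ratio 9.50), and at 4303 and 370 CPM in M-cDC (11.6). Hist1h1b, at chr13:21779883-21780625, was at 1619 CPM in cycling and 40.9 CPM in non-cycling L-cDC, a ratio of 39.6 (37.0 to 42.3). In M-cDC it was at 2391 and 28.6 CPM, a ratio of 83.7 (78.9 to 88.8). NK-like cells held 54.0% and B-like cells 10.7% of the Hist1h1b UMIs of non-cycling L-cDC. Against the dendritic cell clusters alone, which held 15.2 CPM of it in L-cDC, against 28.5 CPM in M-cDC, the ratios were 107 (96.8 to 118) and 83.8 (79.0 to 89.0). Hist1h1a had ratios of 53.2 in L-cDC and 79.1 in M-cDC, and Hist1h1d 8.62 and 8.52. Hist1h1e, at chr13:23620629-23622558, was at 868 CPM in cycling and 138 CPM in non-cycling L-cDC (6.29) and at 1175 and 177 CPM in M-cDC (6.65). Hist1h1c, at chr13:23738808-23740367, had the lowest ratio of the family, with 242 CPM in cycling and 115 CPM in non-cycling L-cDC (2.11, 1.88 to 2.36) and 275 and 124 CPM in M-cDC (2.22, 2.08 to 2.36). Hist1h1t, the linker histone of male germ cells, had 11 UMIs in cycling and 1 in non-cycling L-cDC and 13 and 1 in M-cDC. Its ratios, 288 and 129, rest on that single UMI, with intervals of 41.9 to 12411 and 19.3 to 5472.

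The H2A genes had the highest family ratio, 19.6 in L-cDC (4256 CPM in cycling, 217 CPM in non-cycling cells) and 19.2 in M-cDC (2745 and 143 CPM). Hist1h2ap, at chr13:21833026-21833507, was at 2201 CPM in cycling and 94.0 CPM in non-cycling L-cDC (23.4), and at 1121 and 43.2 CPM in M-cDC (26). It shares 92.4% of its 90-base windows with other genes, mostly Hist1h2ao, Hist1h2ag and Hist1h2ad. Without it the family ratios were 16.6 and 16.3. Hist1h2ae had ratios of 25.6 and 27.5, and Hist2h2ac, of the chromosome 3 cluster, 16.8 and 22. Hist1h2ab was at 413 CPM in cycling and 11.4 CPM in non-cycling L-cDC (36.2), and at 274 and 4.10 CPM in M-cDC (66.9). Hist1h2ac had lower ratios, 4.08 in L-cDC and 2.72 in M-cDC. Hist1h2af had a ratio of 37.4 in L-cDC and 297 (134 to 820) in M-cDC, where its 6 UMIs in non-cycling cells set the size.

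Hist3h2a, at chr11:58954685-58956830, was the H2A gene lower in cycling cells. It was at 12.6 CPM in cycling and 27.9 CPM in non-cycling L-cDC, a ratio of 0.452 (0.262 to 0.728), and at 9.75 and 29.5 CPM in M-cDC, a ratio of 0.331 (0.238 to 0.448). These values rest on 17 UMIs in cycling L-cDC and 43 in cycling M-cDC cells. Its model overlaps Trim17 on the same strand, so part of its UMIs may belong to that gene. Per cell, with no scaling to depth, its ratios were 0.878 (0.509 to 1.41) and 0.660 (0.475 to 0.894).

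The H2B genes were mostly higher in cycling cells, but 1 abundant member, Hist1h2bc, was lower than in the non-cycling cells pooled. Against the resting classes with shared markers, given below, Hist1h2bc was not called lower. With it, the family ratio was the lowest, 3.37 in L-cDC (563 CPM in cycling, 167 CPM in non-cycling cells) and 2.97 in M-cDC (427 and 144 CPM). Without Hist1h2bc it was 10.3 and 9.98. Hist1h2bc was at 41.6 CPM in cycling and 116 CPM in non-cycling L-cDC, a ratio of 0.358 (0.270 to 0.465), and at 25.8 and 103 CPM in M-cDC, a ratio of 0.25 (0.206 to 0.301). In UMIs per cell the ratios were 0.694 (0.523 to 0.903) and 0.498 (0.410 to 0.6), which in L-cDC is less than 2-fold lower, so the lower call was lost. After thinning, 13.7% of cycling and 25% of non-cycling L-cDC cells had a UMI of it, and 5.99% and 22.4% in M-cDC (unthinned 32.9% and 43.3% in L-cDC, 25.9% and 36.0% in M-cDC). Other H2B genes were far higher in cycling cells. Hist1h2bj was at 135 CPM in cycling and 9.30 CPM in non-cycling L-cDC (14.5), and at 112 and 5.36 CPM in M-cDC (20.8). Hist1h2bm had ratios of 38.9 and 92.0, and Hist2h2bb 21 and 55.9. Smaller ratios were found for Hist1h2be, 5.13 and 3.24, and for Hist3h2ba, 2.09 and 2.12. Hist1h2bg was at 2.29 (1.33 to 3.71) in L-cDC and 1.80 (1.29 to 2.47) in M-cDC and was not called.

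The H3 genes were at 599 CPM in cycling and 50.9 CPM in non-cycling L-cDC (11.8), and at 515 and 40.3 CPM in M-cDC (12.8). Hist1h3e had the most UMIs, with ratios of 7.84 and 7.42. Hist1h3c, at chr13:23744973-23745602, was at 175 CPM in cycling and 3.74 CPM in non-cycling L-cDC (46.9, 37.7 to 58.4), and at 189.5 and 0.801 CPM in M-cDC (237, 169 to 342). In non-cycling L-cDC its 132 UMIs came from 38 cells, and 1 cell held 40 of them. The dendritic cell clusters held 21 of the 132, and against them the ratio was 269 (172 to 443) in L-cDC, beside 235 (167 to 339) in M-cDC. Hist1h3b had ratios of 55.1 and 186, on 29 and 8 UMIs in non-cycling cells, and Hist1h3a 4.64 and 3.92. Hist2h3c2, of the chromosome 3 cluster, was not called, at 0.989 (0.117 to 3.75) in L-cDC and 0.464 (0.0933 to 1.42) in M-cDC, on 2 and 3 UMIs in cycling cells.

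The H4 genes were at 1162 CPM in cycling and 150 CPM in non-cycling L-cDC (7.76), and at 970 and 110 CPM in M-cDC (8.83). Hist1h4d, at chr13:23581598-23582735, was at 839 CPM in cycling and 94.4 CPM in non-cycling L-cDC (8.88), and at 723 and 66.0 CPM in M-cDC (11). Hist1h4h had ratios of 10.2 and 12.1, Hist1h4i 2.70 and 2.94 and Hist1h4k 15.5 and 20.7. The family members outside the call were Hist1h4n, Hist2h4 and Hist4h4. Hist2h4 was at 1.62 (0.512 to 3.93) in L-cDC and 2.10 (1.31 to 3.25) in M-cDC, and Hist4h4 at 3.25 (1.72 to 5.68) and 1.1 (0.569 to 1.96).

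The median ratio differed with how far a member's gene model runs past the stem-loop, although single members overlapped widely. Models that end within 100 bases of it belonged to 22 kept members, of which 19 were higher and 0 lower, with a median ratio of 13.1 in L-cDC and 16.9 in M-cDC. Models that run at least 150 bases past it belonged to 22 members, of which 16 were higher and 1 lower, with medians of 5.55 and 4.0. The 16 members with no stem-loop in the model had 14 higher and 1 lower, with medians of 19.8 and 23.6, and 1 member lay between the first 2 groups. Several of these models are short, such as 312 bases for Hist1h4k, 381 for Hist1h2bn and 393 for Hist1h2ak. They end before the position of the stem-loop in the models of their family that hold it. Others are longer: 1156 bases for Hist1h2bc, 1256 for Hist1h2br and 2620 for Hist2h2be. Their ratios were 0.358, 6.55 and 2.38 in L-cDC and 0.25, 4.88 and 4.25 in M-cDC, well below the medians of the group. The group thus mixes short and long models, and its medians do not describe genes without a stem-loop. The members with long models held 71208 UMIs, against 27494 for those with short ones. AATAAA, the poly(A) signal, was in the last 50 bases of the model of 12 kept members, whose median ratios were 2.82 and 3.36, against 12.8 and 13.6 in the 49 others. These groups follow the annotation, not the 3′ ends in the cells, which UMI counts per gene do not show.

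**Figure D2:**
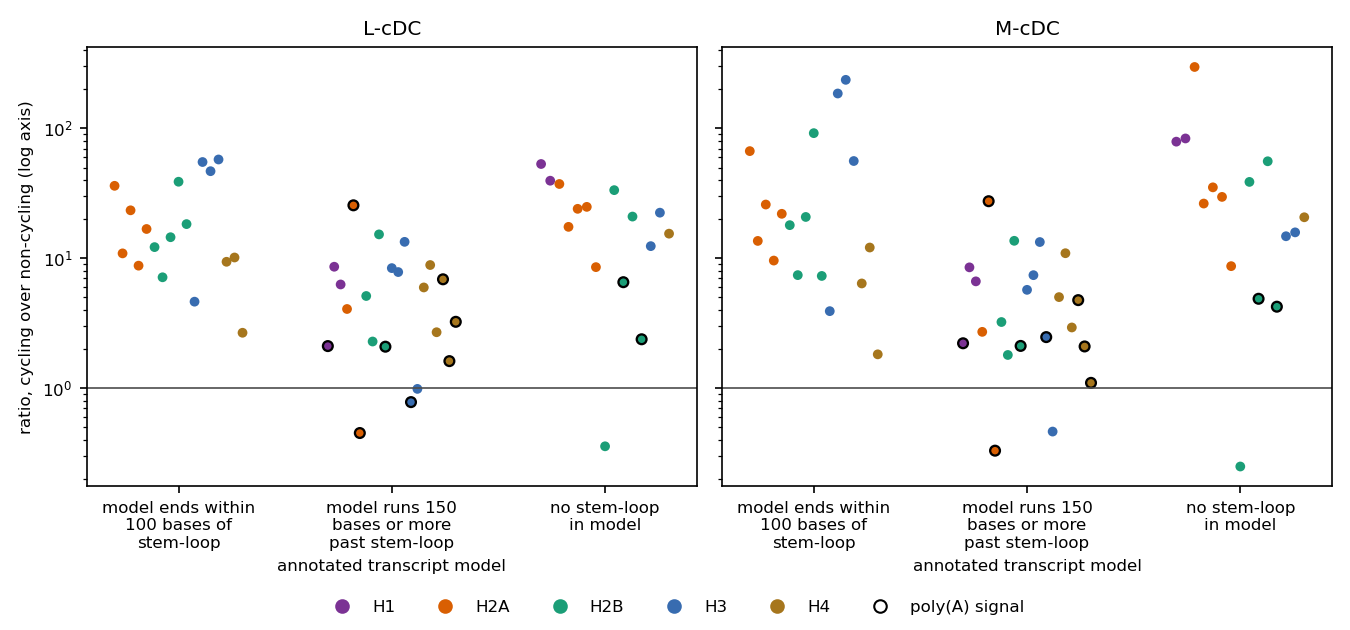
Ratio of cycling over non-cycling cells (log axis) in L-cDC and M-cDC for the 53 members with at least 50 UMIs in 1 of 3 groups of gene models, with each point 1 member. The groups overlap widely, and only their medians differ: over all kept members, 5.55 in L-cDC for models that run at least 150 bases past the stem-loop and 13.1 for those that end within 100 bases of it.

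Each cycling cluster was also set against the resting class whose markers it shared, and the total differed as much as it did overall. One cycling cluster expressed Xcr1, the chemokine receptor of cDC1, and the other was low for it. In the Xcr1-low cluster 14 of 14 cDC2 markers reached 10 CPM in L-cDC, against 12 of 14 in M-cDC, with summed levels of 1442 and 1716 CPM, against 2496 and 2199 CPM in cDC2-like cells. The 10 NK markers summed to 7.04 and 6.98 CPM there, against 6584 CPM in NK-like cells of L-cDC. In the Xcr1-positive cluster they summed to 53.5 CPM in L-cDC, against 5.82 CPM in M-cDC. In cDC1-like cells the sums were 45.9 and 3.74 CPM. These levels describe the clusters and do not establish their lineage. Xcr1-positive cycling cells were at 6359 CPM of clustered histones in L-cDC (27 cells) and cDC1-like cells at 546 CPM (217 cells), a ratio of 11.6. In M-cDC the values were 6173 CPM (112 cells) and 477 CPM (739 cells), a ratio of 13. In this comparison 39 members were higher, where 4.60% of all genes were, and 1, Hist3h2a, was lower, where 0.711% were. Xcr1-low cycling cells had 12694 CPM in L-cDC, against 12304 CPM in M-cDC, against 1155 and 1192 CPM in cDC2-like cells, ratios of 11 and 10.3. Here 42 members were higher, where 4.39% of all genes were, and 0 were lower, where 0.731% were.

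The lower level of Hist1h2bc in cycling cells was not called in these matched comparisons. In L-cDC it was at 15.7 CPM in Xcr1-positive cycling cells and 17.5 CPM in cDC1-like cells, a ratio of 0.897 (0.409 to 1.77), and in M-cDC at 21.2 and 25 CPM, a ratio of 0.847 (0.614 to 1.15). In Xcr1-low cycling cells it was at 64.8 CPM, against 66.6 CPM in cDC2-like cells of L-cDC (0.973, 0.651 to 1.45), and in M-cDC at 31.4 and 39.8 CPM (0.789, 0.590 to 1.04). All 4 intervals included 1. The non-cycling cells were mostly Ccr7-high, with 2774 of 3867 cells in L-cDC and, in M-cDC, 3206 of 5330, and Hist1h2bc was high there.

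Ccr7-high cells were set against resting cDC1-like and cDC2-like cells pooled. Of these pooled cells 6.01% in L-cDC and 6.33% in M-cDC had at least 20 of the cell cycle genes, against 0.144% and 0.0936% of Ccr7-high cells. Against this pool the total differed little, at 1.25 in L-cDC and 1.12 in M-cDC, but the pooled classes lay on either side of Ccr7-high cells. In L-cDC it was 850 CPM in Ccr7-high, 546 CPM in cDC1-like and 1155 CPM in cDC2-like cells. In M-cDC the levels were 858, 477 and 1192 CPM. The pool held 217 cDC1-like and 116 cDC2-like cells in L-cDC, and 739 and 983 in M-cDC. Single members also moved both ways. Hist1h2bc was at 155 CPM in Ccr7-high and 28.2 CPM in resting L-cDC, a ratio of 5.49 (4.59 to 6.63), and at 167 and 31.1 CPM in M-cDC, a ratio of 5.38 (4.91 to 5.90). A UMI of it was found in 30.6% of thinned Ccr7-high L-cDC and 31.8% of thinned Ccr7-high M-cDC cells, against 2.79% and 5.25% of cDC1-like cells (unthinned 53.3% and 49.8%, against 14.3% and 14.6%). The gap to cDC2-like cells was smaller, with thinned shares of 15.3% in L-cDC and 10.6% in M-cDC (unthinned 27.6% and 17.2%). Median depths were 8380.5 and 6958.5 UMIs in Ccr7-high cells, against 15835 and 13875 UMIs in cDC1-like cells and 7782.5 and 6841 UMIs in cDC2-like cells. The H2B total was 3.58-fold higher in L-cDC and 3.22-fold higher in M-cDC with Hist1h2bc, and 1.67-fold (1.39 to 2.03) and 1.3-fold (1.17 to 1.43) higher without it.

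By the 2-fold rule 4 members were higher in Ccr7-high cells, where 10.5% of all genes were, and 4 were lower, where 15.8% were, so neither share of the members exceeded the background. These 8 are named for their small number, after their values had been seen. The higher ones were Hist1h2bc, Hist1h2bb, Hist2h3c1 and Hist2h3c2. The last had no UMI in resting L-cDC, and its ratio of 2.92 there was taken with that side set to 3 counts, so it is not a measured size. The lower ones were Hist2h2ac, Hist2h2ab, Hist1h2bh and Hist1h1a. All 4 were also called higher in cycling cells, but so were 50 of the 61 members, among them Hist1h2bb of the higher ones. Whether cells with many cell cycle genes in the resting classes set the difference of the 4 lower members was not tested. Hist2h2ac was at 6.64 CPM in Ccr7-high and 25.9 CPM in resting L-cDC (0.256), and at 4.68 and 23.3 CPM in M-cDC (0.201). Hist3h2a was at 1.53 (1.23 to 1.92) and 1.88 (1.65 to 2.13) and was not called.

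Within the Ccr7-high clusters Hist1h2bc varied several-fold, and in like manner in both libraries. It was highest in the cluster led by Ppp1r1a, at 331 CPM in L-cDC, against 370 CPM in M-cDC, and in the one led by Txndc17, at 248 and 330 CPM. It was lowest in the clusters led by Dll4, at 47.1 and 69.7 CPM, and by Mdk, at 90.2 and 75.6 CPM. A cluster led by Mucl1, with 354 cells all from L-cDC, was at 97.2 CPM. Outside the dendritic cell clusters Hist1h2bc reached 190.4 CPM in macrophage-like L-cDC cells, against 67.8 CPM in those of M-cDC, and was at 18.7 CPM in NK-like cells.

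Cycling cells were also ordered by the balance of 40 S phase and 38 G2/M genes, lists that hold no histone gene, with each list scaled to its mean over cycling cells. Levels in 6 ranges peaked in cells where the lists were near balance. In L-cDC the total was 752 CPM in cells leaning to S by 4-fold or more (18 cells), 7681 CPM at 2- to 4-fold (6 cells) and 15594 CPM under 2-fold (10 cells). It was 20076 CPM in L-cDC cells leaning to G2/M by under 2-fold (12 cells), 13052 CPM at 2- to 4-fold (13 cells) and 7812 CPM at 4-fold or more (17 cells). M-cDC followed the same course, with 792, 7105, 15994, 18319, 14813 and 5116 CPM over 67, 44, 41, 34, 29 and 55 cells. The cells leaning furthest to S thus had a total close to that of non-cycling cells, 914 CPM in L-cDC, against 806 CPM in M-cDC. The balance compares the expression of 2 gene lists and is not a measure of DNA content, so a range is not a cell cycle phase. Which of these cells were copying DNA was not measured. The 24 S-leaning L-cDC cells past 2-fold had 0.233 (0.218 to 0.248) times the level of the 30 G2/M-leaning ones, and in M-cDC the ratio was 0.366. The size depends on where the cells are parted and how cycling cells are chosen: other settings gave 0.0962 to 0.458 in L-cDC and 0.119 to 0.591 in M-cDC, all below 1. Of the 346 cycling cells, 38 lay within 0.2 on the log2 scale of a boundary at 2-fold.

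Most members shared this course. Over both libraries, 40 members had at least 50 UMIs in cycling cells, and 38 of them were lowest in the cells leaning furthest to S. The highest level fell at under 2-fold to G2/M for 26 members, at 2- to 4-fold to G2/M for 7 and at under 2-fold to S for 5. Hist1h1b passed through 196, 2115, 4452, 4519, 3037 and 998 CPM over the 6 ranges from S to G2/M, and Hist1h1c through 28.6, 135, 380, 488, 453 and 293 CPM. Hist1h2bc and Hist3h2a were the 2 members highest in the cells leaning furthest to G2/M. Hist1h2bc went through 2.86, 12.3, 28.5, 32.0, 41.8 and 64.7 CPM, on 4 UMIs in the first range and 73 in the last. In the last range it was at 105 CPM in L-cDC, close to the 116 CPM of non-cycling L-cDC cells, and at 51.0 CPM in M-cDC, against 103 CPM in non-cycling M-cDC cells.

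L-cDC and M-cDC differed little in the total but differed by family. Among cycling cells the total was 9701 CPM in L-cDC, against 8960 CPM in M-cDC, a ratio of 1.08 (1.06 to 1.1). Divided by the M-cDC level, the L-cDC level of H1 came to 0.725, that of H2A 1.55, of H2B 1.32, of H3 1.16 and of H4 1.20. Under 4 scalings (all UMIs, without mitochondrial, ribosomal protein and immunoglobulin genes, per cell, and thinned to 3000 UMIs) H1 stayed below 1 and H2A, H2B and H4 above it, while H3 ran from 0.944 to 1.26. A member was called at 1.5-fold with an interval that left out 1. By this rule 9 members were higher in cycling L-cDC, where 4.35% of all genes were, and 0 were lower, where 2.39% were.

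The H2A and H1 differences came from abundant members. Hist1h2ap was at 2201 CPM in cycling L-cDC, against 1121 CPM in cycling M-cDC cells, a ratio of 1.96 (1.88 to 2.06). Without Hist1h2ap the H2A ratio was 1.27. Hist1h1b was at 1619 CPM in cycling L-cDC, against 2391 CPM in cycling M-cDC cells, a ratio of 0.677 (0.646 to 0.709), just short of the call. The other 8 called members were Hist1h2ab at 1.51, Hist2h2aa1 at 1.5, Hist1h2ai at 1.64, Hist1h2bn at 1.68, Hist1h2bc at 1.61, Hist1h2bp at 2.70, Hist1h1t at 2.77 and Hist4h4 at 3.53. The last 3 rest on 11 to 14 UMIs in L-cDC. For Hist1h2bc the direction differed by cell class. Over 6 dendritic cell classes, cycling and non-cycling, its ratio ran from 0.701 to 2.06, with 3 intervals above 1 and 2 below.

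Among all non-cycling cells the total was 914 CPM in L-cDC, against 806 CPM in M-cDC (1.13), with 17 members higher (9.99% of all genes) and 0 lower (4.75%). The 17 included Hist1h2bj at 1.74, Hist1h4h at 1.64 and Hist1h3c at 4.67, but in the dendritic cell clusters alone these were 1.16 (0.955 to 1.41), 1.3 (1.14 to 1.49) and 0.807 (0.447 to 1.43), so none was called and Hist1h3c lay below 1. NK-like cells, at 3231 CPM, held 15% of the histone UMIs of non-cycling L-cDC, and 30 of the 149 had at least 20 of the cell cycle genes. In the dendritic cell clusters alone the total was 792 CPM in L-cDC, against 804 CPM in M-cDC, a ratio of 0.985 (0.969 to 1.0). There 6 members were higher in L-cDC (6.70% of all genes) and 3 lower (7.00%), both close to the background. Hist1h2ap was at 75.9 CPM in L-cDC, against 43.2 CPM in M-cDC (1.76), Hist1h2ai at a ratio of 1.74 and Hist1h2ab at 1.68. The other 3, Hist2h2aa1 at 1.52, Hist1h2bb at 1.58 and Hist1h4n at 1.59, were below 5 CPM in both libraries. The 3 lower ones were all H1 genes: Hist1h1b at 15.2 CPM in L-cDC, against 28.5 CPM in M-cDC (0.531), Hist1h1e at 116 and 176 CPM (0.659), and Hist1h1a at a ratio of 0.538.

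The same contrast of Hist1h2ap appeared in each dendritic cell class. Its ratio was at least 1.5 in 6 of 6 classes, at 1.89 in Xcr1-positive cycling, 1.86 in Xcr1-low cycling, 1.82 in cDC1-like, 1.88 in cDC2-like, 2.31 in Cd209d-led and 1.75 in Ccr7-high cells. Its levels in those classes ranged from 52.3 to 2876.5 CPM in L-cDC and from 28.2 to 1548 CPM in M-cDC. The H2A total, which includes Hist1h2ap, was higher in L-cDC with an interval above 1 in 6 of 6 classes, from 1.30 to 1.48. Much of this rests on Hist1h2ap. Without it, the H2A ratio over the 4 scalings was 1.03 to 1.19 in the non-cycling dendritic cell clusters. In cycling cells it was 1.27 to 1.39 without Hist1h2ap. The H1 total was lower in L-cDC with an interval below 1 in 5 of 6 classes. Hist1h1e was at 0.586 in Xcr1-positive cycling, 0.744 in Xcr1-low cycling, 1.03 in cDC1-like, 0.655 in cDC2-like, 0.549 in Cd209d-led and 0.761 in Ccr7-high cells. Over all members, the calls were 8 higher (1.91% of all genes) and 3 lower (1.5%) in Xcr1-positive cycling cells, 4 (4.44%) and 1 (3.56%) in Xcr1-low cycling cells, and 3 (1.19%) and 1 (1.27%) in cDC1-like cells. In cDC2-like cells they were 5 (2.27%) and 1 (1.52%), in Cd209d-led cells 4 (3.99%) and 2 (2.74%), and in Ccr7-high cells 5 (5.50%) and 0 (1.80%). The classes come from 1 pair of libraries, so they are not replicates, and library preparation and tdTomato status cannot be told apart.

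**Figure D3:**
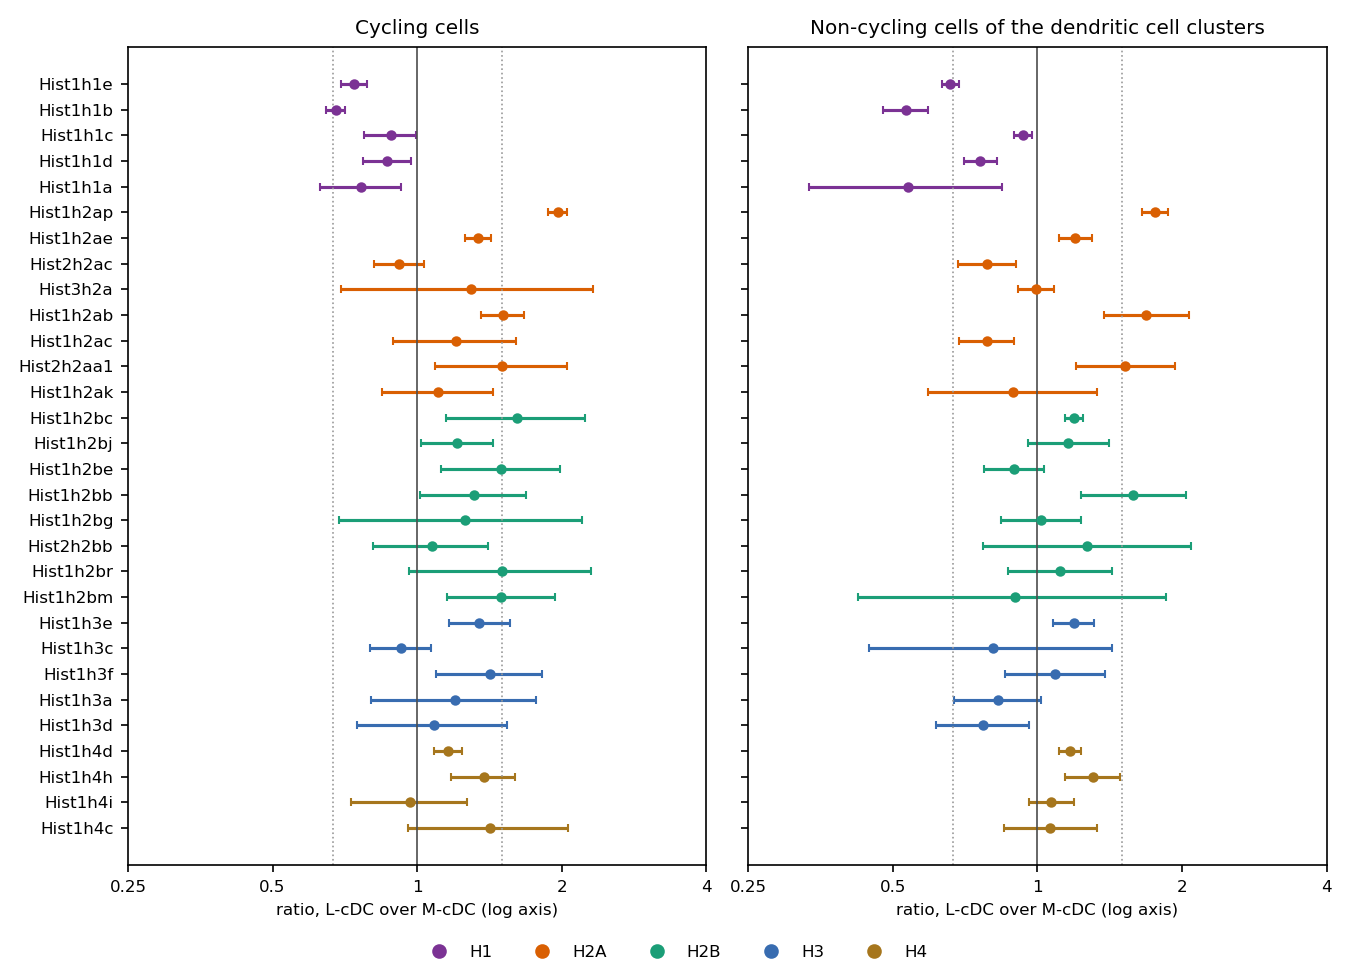
Ratio of L-cDC over M-cDC (log axis) for the 30 members with most UMIs, in cycling cells and in non-cycling dendritic cell clusters, with 95% counting intervals and dotted lines at 1.5-fold. Hist1h2ap lies past the upper line in both, at 1.96 and 1.76, and H1 genes such as Hist1h1b lie left of 1, at 0.677 and 0.531.

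Genes that handle histones were read from 3 fixed lists by the same 2-fold rule, beside 9.54% of all genes higher in cycling cells. Median log2 ratios of the lists are given for L-cDC and then M-cDC, beside 0.41 and 0.25 over all genes. Of 11 replacement histone genes 6 were higher and 0 lower (medians 1.43 and 1.27). H2afx, whose model also holds the stem-loop, was at 598 CPM in cycling and 27.7 CPM in non-cycling L-cDC (21.6), and at 595 and 30.8 CPM in M-cDC (19.3). Cenpa had higher ratios than H2afx, 24.9 in L-cDC and 21.9 in M-cDC, and H2afv was at 3.73 and 4.35. H2afz, which encodes H2A.Z, had ratios of 2.69 and 2.88, and H3f3a and H3f3b, which encode H3.3, were not called, at 1.17 and 1.20 and at 1.30 and 1.15. Of 15 measured genes of histone mRNA processing and transcription 6 were higher and 0 lower (medians 1.13 and 1.04). Slbp, which binds the stem-loop, was at 143 CPM in cycling and 45.0 CPM in non-cycling L-cDC (3.19), and at 182 and 43.8 CPM in M-cDC (4.16). Npat, which activates histone gene transcription, had ratios of 2.25 and 2.05, and Lsm11, of the U7 particle that cuts histone pre-mRNA, 2.83 and 3.44. Of 16 histone chaperone genes 12 were higher and 0 lower (medians 1.72 and 1.78), among them Asf1b at 19.9 and 39.7, Chaf1a at 7.18 and 9.91 and Nasp at 5.06 and 6.86.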

How the data were processed

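Both deposited matrices hold raw UMI counts for each gene in each barcode. Per the file headers they were made with Cell Ranger 6.1.2, and the submitters' processing notes name the build GRCm38 (mm10); the gene annotation and the strand setting are not given in the sources used here. The members and lists were chosen with earlier results of these data known. Barcodes with fewer than 500 genes or over 10% mitochondrial UMIs were removed. Scrublet (expected rate 0.08) set thresholds of 0.635 in L-cDC, which marked 3 barcodes, and 0.258 in M-cDC, which marked 248 there; cells above the lower value were dropped from both, 143 and 248. Cells, scaled to 10000 UMIs each and then logged, were clustered on 2000 variable genes (no histone gene), 30 components and 15 neighbours with Leiden at resolution 1.0, seed 1. Clusters were named from fixed marker lists where a list passed the naming rule. The others were grouped as Ccr7-high or low-depth by the rules above, or named by their leading gene. The Cd209d-led cluster scored best on the plasmacytoid dendritic cell list but did not pass for it. The dendritic cell clusters are the cDC1-like, cDC2-like, Cd209d-led and Ccr7-high ones. UMIs were then summed per library and class and scaled to CPM, with exact Poisson intervals for levels and exact conditional binomial intervals for ratios; a side at 0 was set to 3 counts. No test across libraries was possible. Values are given for the 30 members with most UMIs, the highest and lowest cycling ratio of each family, and members called between libraries; others are named for small counts. Gene models and coordinates came from GENCODE M21 by Ensembl identifier, promoters from RefSeq. The calling steps were run on simulated Poisson counts with known folds. These had no spread between cells beyond counting error, so they check the steps and do not support the calls made here. Alternatives covered cell filters, doublets, resolution, a per-cell definition of cycling, scaling, thinning, the comparison cells, single cells left out and fold thresholds. Clustering used scanpy 1.11.5 with igraph 0.11.9 and scikit-learn 1.9.0, and intervals used scipy 1.17.1 and numpy 2.4.6 under Python 3.11.15; figures used matplotlib 3.10.9 and tables pandas 2.3.3.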

Additional observations from a re-analysis of the deposited data

Results flagged for a closer look

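Hist2h3c1, an H3 gene of the chromosome 3 cluster, had a ratio of cycling over non-cycling cells on either side of 1 in the 2 libraries. It was 0.782 in L-cDC (95% interval 0.0929 to 2.94, 2 UMIs in cycling and 67 in non-cycling cells) and 2.48 in M-cDC (1.27 to 4.51, 14 and 56 UMIs). The difference between the libraries was not tested. The gene shares at least 50% of its 90-base windows with other genes and overlaps another gene on the same strand, so its UMIs are uncertain.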

How the results depend on the processing

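Of the single-gene ratios recomputed under other settings, 1422 stayed within the reported 95% interval, 259 moved outside it and 0 of the called ones changed direction. All 5 families stayed higher in cycling cells under every setting run, and the count of members higher ranged from 36 (thinned to 3000 UMIs) to 54 (UMIs per cell). The 2 settings chosen after seeing the data were dendritic cell clusters alone as the non-cycling cells, and non-cycling cells with at least 20 cell cycle genes left out. The causes of the moves below were not tested.

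The total of cycling over non-cycling L-cDC was 11.4 at 200 genes per barcode, 11.95 at 1000 genes, 10.4 at 5% mitochondrial UMIs, 10.3 with doublet-like barcodes kept, 10.9 at resolution 0.5, 8.88 with a per-cell definition of cycling, 10.9 without mitochondrial, ribosomal protein and immunoglobulin UMIs, 20.6 per cell, 10.4 thinned, 11.8 against cDC1-like, cDC2-like and Ccr7-high cells, 10.2 without each gene's top cell, 12.2 against dendritic cell clusters and 12.2 without cells that had cell cycle genes. For M-cDC it was 11.4 and 11.5 at 200 and 1000 genes, 10.4 at 5% mitochondrial UMIs, 10.5 with doublet-like barcodes, 7.88 per-cell definition, 11.3 without the named gene classes, 22.1 per cell, 10.0 thinned and 10.9 against the 3 classes.

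L-cDC over M-cDC in cycling cells was 1.13 at 200 and at 1000 genes, 1.14 at 5% mitochondrial UMIs, 1.12 with doublet-like barcodes and at resolution 0.5, 1.17 per cell and 1.03 without each gene's top cell. In non-cycling cells it was 1.09 at 1000 genes, 1.26 per cell, 1.02 thinned and 1.1 without each gene's top cell, and it reversed to 0.973 with the per-cell definition, 0.985 in dendritic cell clusters and 0.974 without cells that had cell cycle genes. The 17 members differing there became 8 with the per-cell definition, 9 thinned, 10 at 2-fold, 9 in dendritic cell clusters and 7 without such cells. Members lower in cycling cells numbered 0 per cell, 1 (Hist1h2bc) thinned and 0 at 4-fold.

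S-leaning over G2/M-leaning L-cDC was 0.283 and 0.273 at 200 and 1000 genes, 0.208 at 5% mitochondrial UMIs, 0.218 at resolution 2.0, 0.138 per-cell definition, 0.253 without the named gene classes, 0.178 thinned, 0.189 without top cells, 0.458 with no gap and 0.0962 at 4-fold. In M-cDC it was 0.379, 0.424, 0.271, 0.307 with doublet-like barcodes, 0.320, 0.119, 0.384, 0.347 per cell, 0.354 without top cells, 0.591 and 0.155. No paired analysis was possible because each group has 1 library. Levels under a few CPM rest on single counts.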
